A study of Mus musculus with 13 samples.

Results

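Spectrins, ankyrins, tropomodulins and adducins form the protein skeleton under the plasma membrane. The group described here holds 9 genes, Sptan1, Sptbn1, Ank2, Ank3, Tmod1, Tmod2, Tmod3, Add1 and Add2, taken by gene symbol from the probe annotation of the arrays. They are measured by 40 of the 45037 probe sets tested, where a probe set is a group of short oligonucleotides on the array that reads 1 transcript or part of it. All 40 were kept, since no filter on dim probe sets was used. The group was gathered with earlier results of these arrays known, among them a lower value of Tmod3 at its second brightest probe set in creatine-fed mice, so every difference between creatine-fed and untreated mice is given below as a description.

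The 13 arrays each hold total RNA of 1 hemisphere from a male C3HeB/FeJ mouse, an inbred strain. Pellets with 1% creatine were fed to 6 of them for 6 months. The other 7, called untreated here, had equicaloric pellets lacking it. All were 10 to 12 weeks old when the feeding began, the labels name no transgene or deletion in either group, and they call the arrays biological replicates. Creatine carries phosphate groups that restore ATP. A hemisphere holds many cell types, so fewer cells of a type and less RNA per cell cannot be told apart in these values.

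As background, alpha and beta spectrins join into long flexible rods that cross-link short actin filaments. In axons these filaments form evenly spaced rings held apart by spectrin. Ankyrins tie the spectrin network to channels and adhesion molecules in the membrane, tropomodulins cap the slow-growing (pointed) ends of the actin filaments, and adducins cap the fast-growing (barbed) ends and bring spectrin to them. In neurons the network shapes the axon initial segment, the nodes of Ranvier and dendritic spines.

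Some arrays differed in the brain regions or cells they contained. The mean log2 level of 5 cerebellar markers was 9.14 to 10.66 in creatine-fed mice and 10.12 to 11.09 in 6 untreated mice, but 6.20 in untreated replicate 3. That array also had the highest olfactory bulb marker level of all 13. Oligodendrocyte markers, 5 measured of 6 listed, summed 16024 to 18097 intensity units in creatine-fed mice and 17450 to 21747 in untreated mice, a mean log2 difference of -0.14 with 4 of the 5 lower (exact permutation test over 1716 splits, 2-sided, p = 0.00233, 0.028 adjusted over 12 marker lists and RNA quality ratios). That call was lost when creatine-fed replicate 2 and untreated replicate 3 were both left out (log2 difference -0.16, exact permutation test, adjusted p = 0.052). None of the other 9 marker lists, for neurons (6 of 6 measured), astrocytes, microglia, endothelium, red blood cells, cerebellum, cortex, striatum and olfactory bulb, nor either 3'/5' ratio of the control probe sets for Gapdh and Actb, a measure of RNA integrity, passed in that family. The 6 neuron markers summed 23787 to 26455 in creatine-fed mice and 24562 to 27644 in untreated mice, well above the array medians. Red cells are rich in some of these proteins. Of 6 red blood cell markers 4 were measured, summing 470 to 642 in creatine-fed mice and 535 to 606 in untreated mice, and Hba-a1, a hemoglobin chain, averaged less than any array median. Array medians ran from 37 to 45 units, and precision is set by how few arrays there are.

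Setting creatine-fed against untreated animals asks whether transcripts of this skeleton differ in the hemisphere after creatine feeding. No probe set of the 9 genes passed an adjusted p of 0.05 over all 45037 probe sets (limma with Benjamini-Hochberg adjustment), where 0.00888% of all probe sets did, 0.00666% higher and 0.00222% lower. The smallest adjusted p among the 40 was 0.0648, for the second brightest probe set of Tmod3. Mean log2 values were higher in creatine-fed mice at 27 of the 40, against 42.2% of all probe sets, and lower at 13, against 57.8%. The median log2 difference of the 40 was 0.11, against -0.03 over all probe sets. At an unadjusted p under 0.05, 13 were higher and 4 lower, where the shares over all probe sets were 4.17% and 7.7%. The creatine-fed and untreated mice did not overlap at 3 probe sets, 1 higher (0.24% of all probe sets) and 2 lower (0.32%). These 3 are Tmod2 at 1437167_at, the second brightest of Tmod3 and Ank3 at 1447259_at. Since the group was gathered with this comparison known, nothing is read from these counts.

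The absence of calls depended on the settings. When only the 22519 brighter probe sets were tested, 4 of the 32 members among them passed, Sptbn1 1419256_at and Tmod2 1437167_at higher and the second brightest of Tmod3 and Ank3 1447259_at lower, where 0.608% of probe sets passed; 22 of those 32 had higher means, against 45.9%. With trend and robust eBayes 3 members passed (0.357% of all probe sets), and 1 passed with an offset of 50 (0.0799%) and with array weights (0.0289%). No member passed after quantile normalization (0.00444%), with the 3'/5' ratio (0.00666%) or the cerebellar marker mean (0.00222%) as a covariate, or without creatine-fed replicate 2 and untreated replicate 3 (0.00444%). Without untreated replicate 3 alone, neither a member nor any other probe set passed.

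**Figure D1:**
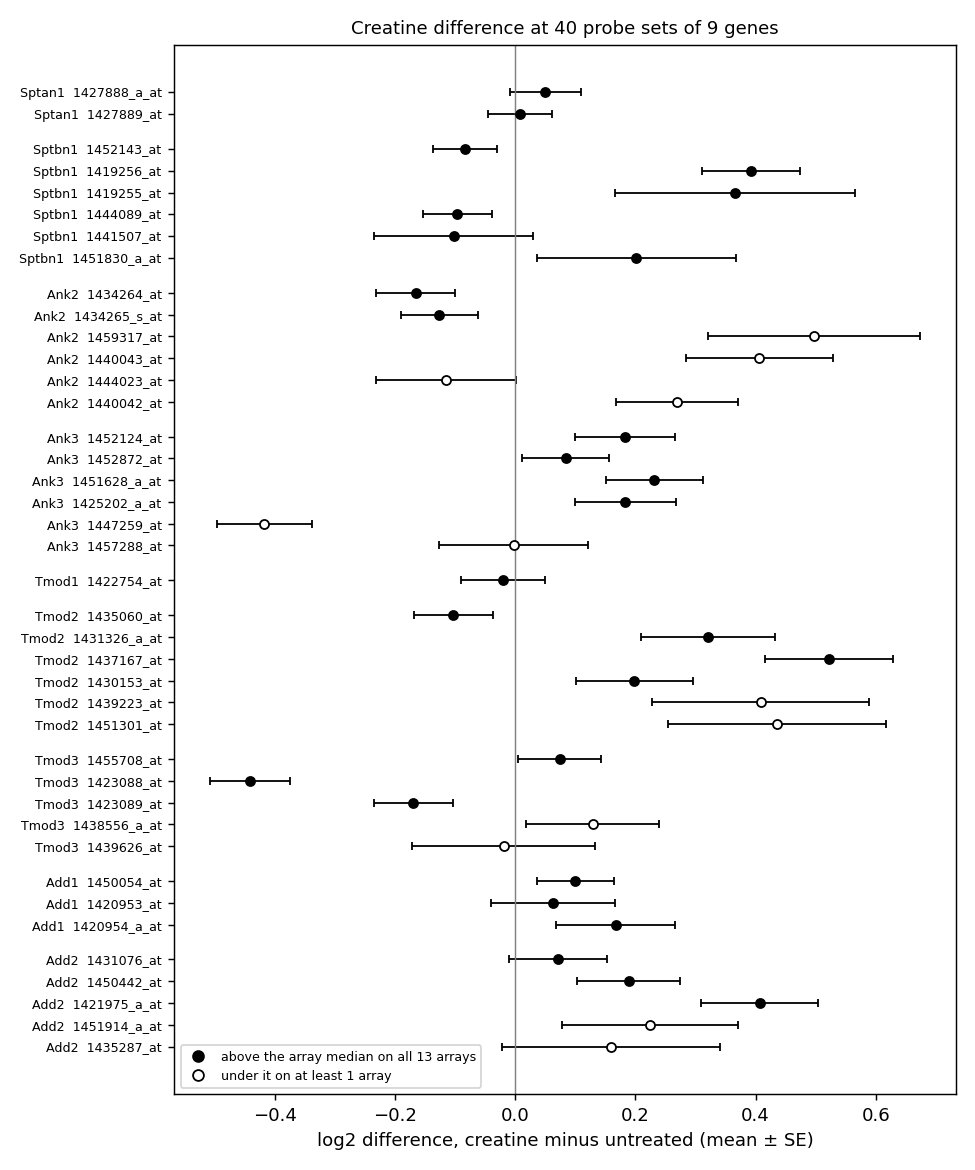
Log2 difference, creatine-fed minus untreated (x axis, mean ± SE from limma, 6 and 7 mice), for each of the 40 probe sets, grouped by gene with the brightest on top. Filled circles mark the 28 probe sets above the array median on all 13 arrays. Points of the same gene lie on both sides of 0 for Sptbn1, Ank2, Ank3, Tmod2 and Tmod3.

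Tropomodulins come first, since they hold the widest differences on both sides. Tmod3, the widely expressed tropomodulin, is read by 5 probe sets. At the second brightest the creatine-fed mice read 86 to 100 intensity units with a median of 91.5, and the untreated mice read 117 to 150 with a median of 134. The groups did not overlap, and all 6 creatine-fed mice lay below the lowest untreated mouse. The means were 92.5 ± 5.39 (SD, n = 6) and 132 ± 11.5 (SD, n = 7), a log2 difference of -0.44 ± 0.07 (SE).

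The annotation lists the same source sequence record for that probe set and for 1423089_at. That does not show that both read the same stretch of it, and probe sequences were not examined. At 1423089_at the creatine-fed mice read 53 to 67 with a median of 60.5, and the untreated mice 66 to 79 with a median of 69. Each of the 6 creatine-fed mice was under the mean of untreated mice, but the ranges met between 66 and 67 units, and the log2 difference was -0.17 ± 0.07 (SE). Both probe sets that share a source record were thus lower in creatine-fed mice, by unequal amounts.

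The other Tmod3 probe sets did not show a lower value of that size. The brightest, 1455708_at, read 174 to 212 with a median of 181 in creatine-fed mice and 166 to 200 with a median of 177 in untreated mice. Its log2 difference was 0.07 ± 0.07 (SE), with 4 of 6 creatine-fed mice over the mean of untreated mice. At 1438556_a_at the difference was 0.13 ± 0.11 (SE), with medians of 52.5 in creatine-fed and 52 in untreated mice, and 0.06 without creatine-fed replicate 2 or 0.08 without untreated replicate 7. The fifth, 1439626_at, lay under the array median on all 13 arrays, at 2 to 12 units in creatine-fed and 2 to 15 in untreated mice, where the groups overlapped throughout. Of the Tmod3 probe sets above the array median on every array, the pair with a shared source record was thus lower in creatine-fed mice. The difference at the brightest was about the size of its SE.

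Tmod2, the tropomodulin of neurons, is the next coding gene beside Tmod3 in the gene table, and 5 of its 6 probe sets had higher means in creatine-fed mice. At 1437167_at the creatine-fed mice read 133 to 201 with a median of 149, and the untreated mice 91 to 124 with a median of 107. Every creatine-fed mouse lay above every untreated mouse. The means were 162 ± 31.3 (SD, n = 6) and 107 ± 11.8 (SD, n = 7), a log2 difference of 0.52 ± 0.11 (SE).

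At 1431326_a_at the creatine-fed mice read 580 to 945 with a median of 719 and the untreated mice 457 to 660 with a median of 611. Each of the 6 creatine-fed mice was over the mean of untreated mice, though the ranges overlapped, and the log2 difference was 0.32 ± 0.11 (SE). The dimmer 1430153_at, 1439223_at and 1451301_at had log2 differences of 0.20, 0.41 and 0.44, each with overlapping groups. With the oligodendrocyte marker mean as a covariate that at 1430153_at was 0.41 and that at 1439223_at 0.21. The r of 1430153_at with that mean, group means removed over 13 mice, was 0.69 (permutation p = 0.0137, adjusted p = 0.192 over 120 relations; rho = 0.63, p = 0.0331). Leaving out creatine-fed replicate 3 and untreated replicate 7 gave 0.56. With an offset of 50 the differences at 1439223_at and 1451301_at were 0.25 and 0.26. At the last 2 of these, 9 and 10 of the 13 arrays lay under the array median.

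The brightest Tmod2 probe set went the other way. At 1435060_at the creatine-fed mice read 695 to 848 with a median of 741.5 and the untreated mice 752 to 875 with a median of 784. Its log2 difference was -0.10 ± 0.07 (SE), and 5 of 6 creatine-fed mice were under the mean of untreated mice. The 1 creatine-fed mouse above it, replicate 4, read 848 where the next highest read 747.

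Tmod1, first described in red cells and also made in neurons and muscle, is read by 1 probe set. At 1422754_at the creatine-fed mice read 215 to 259 with a median of 248.5 and the untreated mice 216 to 273 with a median of 246. The ranges were nearly the same and the log2 difference was -0.02 ± 0.07 (SE), which was 0.03 after each array was centred on its median. Across the 3 tropomodulins, then, means were close for Tmod1, higher at 5 of 6 probe sets for Tmod2 and divided for Tmod3.

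**Figure D2:**
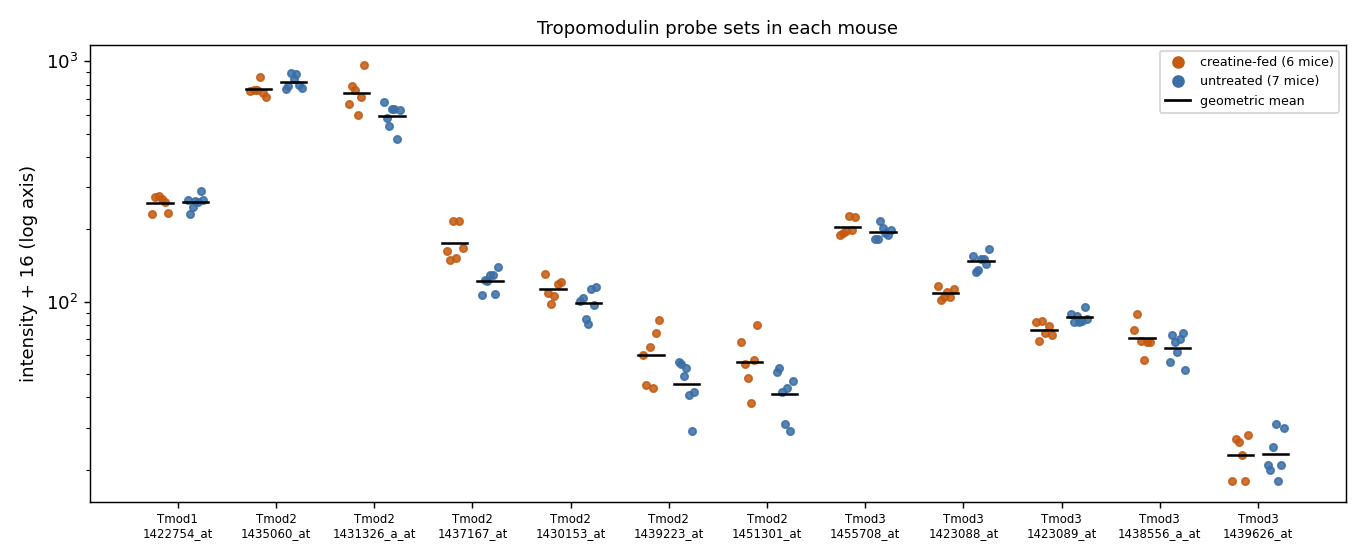
Intensity plus 16 (y axis, log scale) of each mouse at the 12 tropomodulin probe sets, with 6 creatine-fed mice in orange left of 7 untreated mice in blue and a bar at each geometric mean. At Tmod2 1437167_at all creatine-fed mice lie above, and at the second brightest Tmod3 probe set all lie below, every untreated mouse.

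Differences at the brightest probe sets of the spectrins were small, as they were for the tropomodulins. Sptan1, the alpha spectrin of non-red cells, is read by a pair of probe sets with the same source record. At 1427888_a_at the creatine-fed mice read 3213 to 3861 with a median of 3676.5 and the untreated mice 3381 to 3588 with a median of 3459. The log2 difference was 0.05 ± 0.06 (SE), and the creatine-fed range held the whole untreated range. At 1427889_at it was 0.01 ± 0.05 (SE), with a median of 3056.5 in creatine-fed mice, against 3037 in untreated mice. The coefficient of variation of Sptan1 was 6.93% in creatine-fed and 1.91% in untreated mice at 1427888_a_at, and 3.53% and 3.19% at 1427889_at.

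Sptbn1, the main beta spectrin outside red cells, is read by 6 probe sets, 3 with higher and 3 with lower means in creatine-fed mice. All 6 lay above the array median on all 13 arrays. At 1419256_at the creatine-fed mice read 1275 to 1671 with a median of 1476 and the untreated mice 987 to 1320 with a median of 1115. Each of the 6 creatine-fed mice was over the mean of untreated mice, and the ranges overlapped only between creatine-fed replicate 4 at 1275 and untreated replicate 1 at 1320. The means were 1484 ± 135 (SD, n = 6) and 1127 ± 109 (SD, n = 7), a log2 difference of 0.39 ± 0.08 (SE).

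At 1419255_at, which shares its source record with 1419256_at, the creatine-fed mice read 275 to 592 with a median of 485 and the untreated mice 237 to 498 with a median of 366. The log2 difference was 0.37 ± 0.20 (SE), with 5 of 6 creatine-fed mice over the mean of untreated mice and wide overlap. It was 0.23 without creatine-fed replicate 2 and untreated replicate 3. At 1451830_a_at it was 0.20 ± 0.17 (SE), 0.34 without creatine-fed replicate 4 and 0.10 once the 3'/5' ratio was a covariate. Among untreated mice the coefficient of variation was 9.70% at 1419256_at, 27.7% at 1419255_at and 22.6% at 1451830_a_at, against 2.54% at the brightest Sptbn1 probe set.

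The brightest Sptbn1 probe set, 1452143_at, read 4941 to 5563 with a median of 5256 in creatine-fed mice and 5428 to 5771 with a median of 5523 in untreated mice. Each of the 6 creatine-fed mice was under the mean of untreated mice, and the log2 difference was -0.08 ± 0.05 (SE). It shrank to -0.01 after quantile normalization and to -0.03 after centring each array on its median. At 1444089_at the difference was -0.10 ± 0.06 (SE), also with all 6 under the mean of untreated mice, and at 1441507_at -0.10 ± 0.13 (SE). As at Tmod2, the brightest probe set of Sptbn1 had a lower and a dimmer one a higher mean in creatine-fed mice. The dimmer 1444089_at and 1441507_at were lower too, and at Tmod3 and Ank3 the brightest was higher and a dimmer one lower. Probe sets in both directions were found at 90.65% of the 856 genes on the arrays with at least 5 probe sets.

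**Figure D3:**
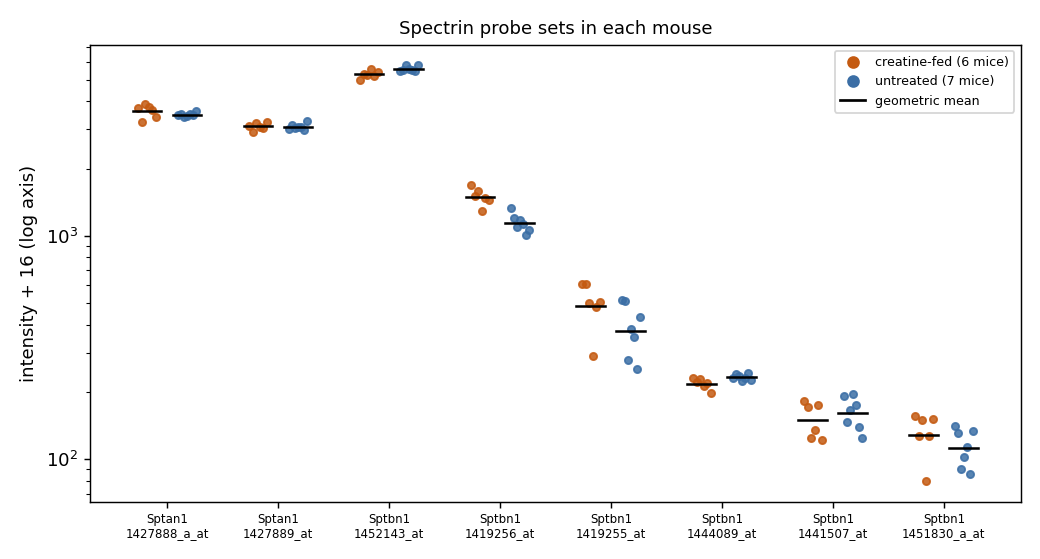
Intensity plus 16 (y axis, log scale) of each mouse at the 2 Sptan1 and 6 Sptbn1 probe sets, with 6 creatine-fed mice in orange left of 7 untreated mice in blue and a bar at each geometric mean. At Sptbn1 1419256_at the creatine-fed mice run from 1275 to 1671 and the untreated mice from 987 to 1320, before the offset.

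Ankyrins also had probe sets in both directions. Ank2, known as ankyrin-B and spread along axons, is read by 6 probe sets. At the brightest, 1434264_at, the creatine-fed mice read 2361 to 3020 with a median of 2813 and the untreated mice 2979 to 3270 with a median of 3137. Each of the 6 creatine-fed mice was under the mean of untreated mice, with an overlap between 2979 and 3020 units, and the log2 difference was -0.17 ± 0.07 (SE). At 1434265_s_at, which shares its source record, the difference was -0.13 ± 0.06 (SE), and -0.08 without creatine-fed replicate 5, again with all 6 under the mean of untreated mice.

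The other 4 probe sets of Ank2 were dim. At 1459317_at the creatine-fed mice read 51 to 97 with a median of 67.5 and the untreated mice 23 to 59 with a median of 49, a log2 difference of 0.50 ± 0.18 (SE). The lowest untreated value there, 23, came from replicate 3, the array with few cerebellar transcripts, and without it the difference was 0.40. The remaining 3, 1440043_at, 1444023_at and 1440042_at, lay under the array median on all 13 arrays, with log2 differences of 0.41, -0.12 and 0.27 with an offset of 16 added before the logarithm and of 0.81, -0.37 and 1.30 with an offset of 1.

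Ank3, ankyrin-G, gathers sodium channels and adhesion molecules at the axon initial segment and the nodes. Its 4 brighter probe sets all had higher means in creatine-fed mice. At the brightest, 1452124_at, the creatine-fed mice read 1785 to 2123 with a median of 1903 and the untreated mice 1499 to 2086 with a median of 1672, a log2 difference of 0.18 ± 0.08 (SE). At 1451628_a_at they read 566 to 773 with a median of 623.5 and 499 to 595 with a median of 556, in creatine-fed and untreated mice, a log2 difference of 0.23 ± 0.08 (SE). At both, and at 1425202_a_at with a difference of 0.18 ± 0.08 (SE), each of the 6 creatine-fed mice was over the mean of untreated mice while the ranges overlapped. The difference at 1452872_at was 0.08 ± 0.07 (SE).

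The dim 1447259_at of Ank3 went the other way. The creatine-fed mice read 41 to 58 with a median of 50 and the untreated mice 63 to 83 with a median of 68, so the groups did not overlap. The means were 49.5 ± 6.25 (SD, n = 6) and 71.4 ± 7.41 (SD, n = 7), a log2 difference of -0.42 ± 0.08 (SE). At 1457288_at, under the array median on 11 arrays, the difference was -0.00 ± 0.12 (SE).

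**Figure D4:**
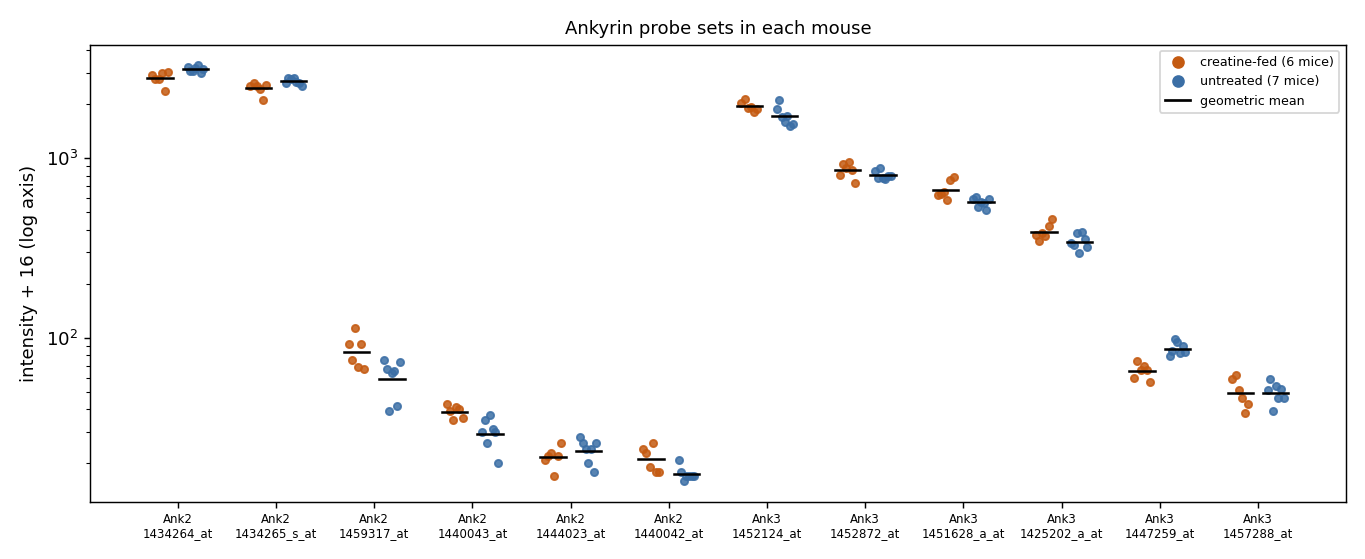
Intensity plus 16 (y axis, log scale) of each mouse at the 6 Ank2 and 6 Ank3 probe sets, with 6 creatine-fed mice in orange left of 7 untreated mice in blue and a bar at each geometric mean. At Ank3 1447259_at all creatine-fed mice lie below every untreated mouse, while at the 4 brighter Ank3 probe sets the creatine-fed means are higher.

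Adducins had higher means in creatine-fed mice at all 8 of their probe sets, with none of them apart. Add1, alpha adducin, is read by 3 probe sets with the same source record. At the brightest, 1450054_at, the creatine-fed mice read 1739 to 2114 with a median of 1866 and the untreated mice 1652 to 1916 with a median of 1754, a log2 difference of 0.10 ± 0.06 (SE). The differences at 1420954_a_at and 1420953_at were 0.17 ± 0.10 and 0.06 ± 0.10 (SE), and without creatine-fed replicate 6 they were 0.11 and -0.02. Groups overlapped widely at all 3.

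Add2, beta adducin, is found in brain and red cells and is read by 5 probe sets. At 1421975_a_at the creatine-fed mice read 71 to 107 with a median of 93 and the untreated mice 50 to 72 with a median of 66. Only creatine-fed replicate 4, at 71, lay within the untreated range, and the log2 difference was 0.41 ± 0.10 (SE). The brightest, 1431076_at, read 1061 to 1329 with a median of 1130.5 in creatine-fed mice and 984 to 1349 with a median of 1079 in untreated mice. Its difference was 0.07 ± 0.08 (SE), with wide overlap, and was -0.02 with the oligodendrocyte marker mean as a covariate. The others had log2 differences of 0.19 at 1450442_at, 0.22 at 1451914_a_at and 0.16 at 1435287_at, the last under the array median on all 13 arrays. Without creatine-fed replicate 6 the difference at 1451914_a_at was 0.14, and leaving out 1 mouse moved that at 1435287_at to between 0.08 and 0.28.

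Taking 1 probe set per gene, the brightest, 5 of the 9 genes had higher and 4 lower means in creatine-fed mice; the log2 differences lay between -0.17 for Ank2 and 0.18 for Ank3. With the mean log2 difference over all probe sets of a gene, 7 were higher. Of the 8 genes with at least 2 probe sets, 5 had probe sets in both directions, or 62.5%, where 59.6% of the 9010 such genes on the arrays did. Among genes with at least 5 probe sets it was 5 of 6 members, or 83.33%, and 90.65% of 856 genes. Among genes with at least 2 probe sets at an unadjusted p under 0.05 it was 2 of 5 members, or 40%, and 26.03% of 461 genes.

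Whether probe sets of 1 gene vary together from mouse to mouse can be asked apart from the feeding comparison, by removing each group's mean. Pearson's r between probe sets was taken over the 13 mice on log2 values with permutations within groups (100000 resamples, 2-sided), adjusted over the 25 pairs of Tmod3 and Sptbn1. For Sptbn1, 1419255_at and 1451830_a_at varied together (r = 0.90, p = 5e-04, adjusted p = 0.0125; Spearman's rho = 0.82, p = 0.00255, adjusted p = 0.0638, by permutation). So did 1419256_at and 1419255_at (r = 0.81, p = 0.00206, adjusted p = 0.0258; rho = 0.73, p = 0.00973, adjusted p = 0.122, by permutation). Within creatine-fed and untreated mice alone r was 0.87 and 0.95 for the first pair and 0.85 and 0.78 for the second. For each pair the 2 mice farthest from the median at its brighter probe set were also left out, keeping the group means of all 13 mice. These were creatine-fed replicate 4 and untreated replicate 6 for the first pair. For the second they were creatine-fed replicate 4 and untreated replicate 1. Without them r was 0.76 and 0.69.

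The brightest Sptbn1 probe set, 1452143_at, had negative r with each of the other 5, from -0.64 to -0.45, none of which passed the adjustment. Without creatine-fed replicates 1 and 4 these were weaker, -0.47 with 1444089_at, -0.40 with 1441507_at, -0.07 with 1419255_at and 0.07 with 1451830_a_at, so the last 2 rest on those mice. Its r with 1419256_at was -0.64 (permutation p = 0.0239, adjusted p = 0.141; rho = -0.55, permutation p = 0.0661, adjusted p = 0.218) and -0.34 without creatine-fed replicates 1 and 4. The 3 probe sets with higher means in creatine-fed mice, 1419256_at, 1419255_at and 1451830_a_at, had r of 0.75 to 0.90 among themselves, where the pair 1419256_at and 1451830_a_at missed the adjustment (r = 0.75, permutation p = 0.00642, adjusted p = 0.0535; rho = 0.64, permutation p = 0.0285, adjusted p = 0.218). Without creatine-fed replicate 4 and untreated replicate 1, r for that pair was 0.57.

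For Tmod3 none of the 10 pairs passed, and the median r was -0.17, with 4 pairs above 0. The pair with a shared source record, the second brightest and 1423089_at, had r = 0.12 (permutation p = 0.694, adjusted p = 0.868; rho = 0.20, permutation p = 0.527, adjusted p = 0.743), and 0.07 without untreated replicates 2 and 7. The brightest, 1455708_at, had r = 0.08 with the second brightest (permutation p = 0.786, adjusted p = 0.916; rho = 0.05, permutation p = 0.883). Leaving out creatine-fed replicate 4 and untreated replicate 3 gave 0.39 for it. The most negative r, -0.62 between the second brightest and 1438556_a_at, did not pass (permutation p = 0.0281, adjusted p = 0.141; rho = -0.56, permutation p = 0.0698), and was -0.42 without untreated replicates 2 and 7.

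**Figure D5:**
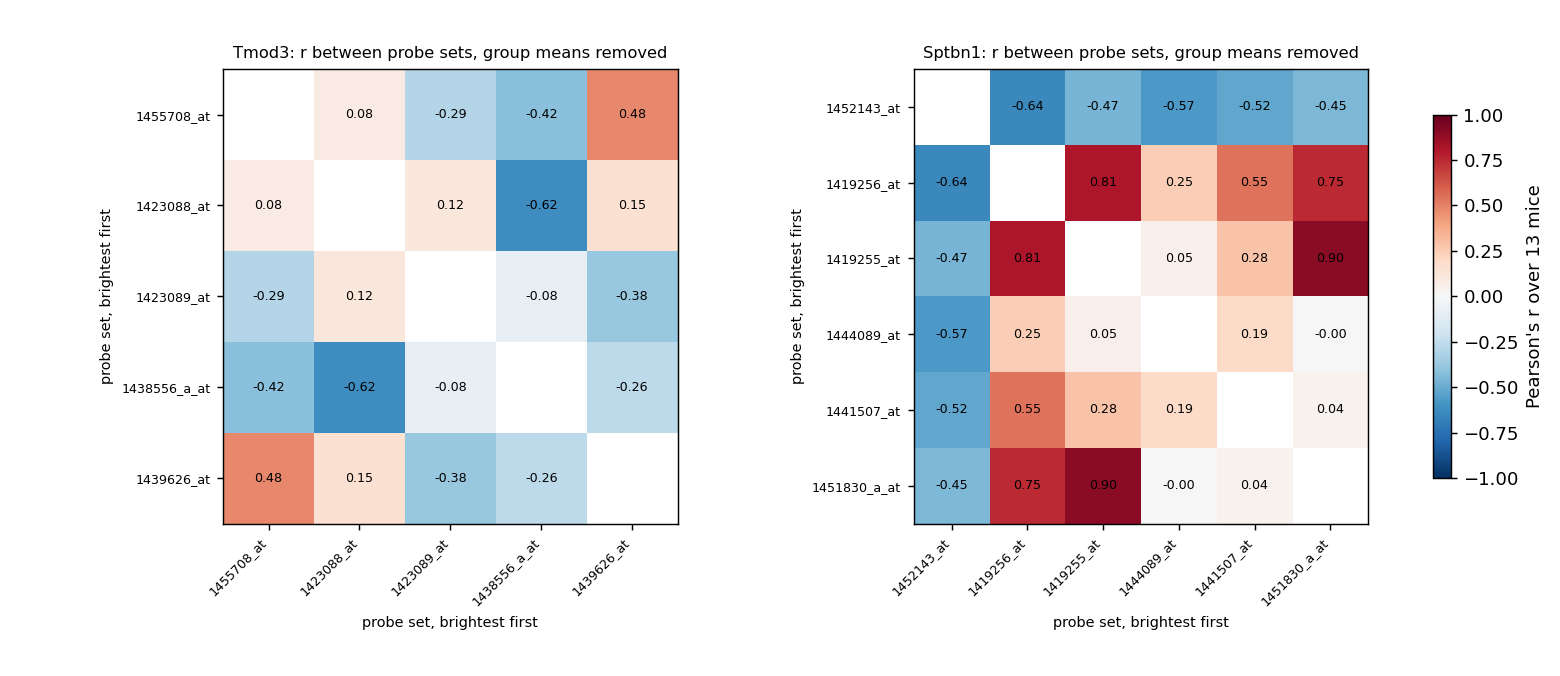
Pearson's r between probe sets of Tmod3 (left) and Sptbn1 (right) over 13 mice after each group's mean was removed, on a colour scale from -1 to 1, with probe sets ordered by brightness. Sptbn1 shows a block of 3 probe sets with r of 0.75 to 0.90 and negative r for the brightest, while Tmod3 ranges from -0.62 to 0.48.

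Across all 84 pairs of the 8 genes with several probe sets the median r was 0.05, against 0.08 over 30372 pairs of all genes. Among brighter probe sets the gap was wider, with a median of 0.02 and 25 of 50 pairs above 0 for the members, against 0.15 and 8947 of 13868 pairs for all genes. In the 9 pairs with a shared source record every r was above 0, from 0.12 to 0.85 with a median of 0.49, against a median of 0.13 over 5219 such pairs of all genes. Not all of them held without the 2 mice farthest from the median: r was then -0.07 for the Sptan1 pair (without creatine-fed replicates 2 and 3), -0.22 for the Ank2 pair (without creatine-fed replicates 5 and 6) and 0.03 for the Ank3 pair (without creatine-fed replicates 4 and 6). Within creatine-fed and untreated mice alone it was 0.77 and -0.16 for Ank2, and 0.91 and -0.49 for Ank3. The highest r was between 1420953_at and 1420954_a_at of Add1 (r = 0.85, permutation p = 0.00125, adjusted p = 0.0738 over the 59 pairs outside Tmod3 and Sptbn1; rho = 0.63, permutation p = 0.0381), and r was 0.73 without creatine-fed replicate 6 and untreated replicate 2. None of those 59 pairs passed. By gene, the median r was 0.06 for Ank2, -0.13 for Ank3, 0.06 for Tmod2 and 0.08 for Add2, over 15, 15, 15 and 10 pairs. These pairs share arrays and probes, so their counts and medians are a description.

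The hemispheres differed in cerebellar content, so the probe sets were set against it mouse by mouse. None of 120 relations, 40 probe sets with cerebellar markers, oligodendrocyte markers and the 3'/5' ratio, passed the adjustment. With group means removed, r with the 3'/5' ratio ran from -0.69 to 0.53 (Ank2 1440043_at). The lowest was for Add2 1421975_a_at (permutation p = 0.0117, adjusted p = 0.192, rho = -0.77). It was -0.68 for Ank2 1459317_at, -0.62 for Sptbn1 1451830_a_at and Sptan1 1427889_at, and -0.59 for Tmod2 1437167_at. Without creatine-fed replicate 3 and untreated replicate 7, r was -0.66, -0.52, -0.59, -0.29 and -0.25 in that order. The cause was not tested. With group means removed over 13 mice, the strongest r with the mean of the 5 cerebellar markers was -0.81 for Add2 1431076_at (permutation p = 0.00788, adjusted p = 0.192; rho = -0.66, p = 0.0126). It was -0.72 for Tmod3 1455708_at (permutation p = 0.00152, adjusted p = 0.151; rho = -0.61, p = 0.0186), 0.70 for Ank2 1459317_at (permutation p = 0.00252, adjusted p = 0.151; rho = 0.64, p = 0.0174) and -0.64 for Add1 1450054_at (permutation p = 0.00629, adjusted p = 0.192; rho = -0.67, p = 0.00499). It was 0.63 for Ank3 1457288_at (permutation p = 0.00821, adjusted p = 0.192; rho = 0.64, p = 0.00927), 0.62 for Sptbn1 1419255_at (permutation p = 0.0104, adjusted p = 0.192; rho = 0.74, p = 0.00324) and -0.53 for Sptbn1 1452143_at (permutation p = 0.0144, adjusted p = 0.192; rho = -0.34, p = 0.239). Untreated replicate 3 and creatine-fed replicate 4 are farthest from the cerebellar median. Without them, keeping the group means of all 13 mice, r was -0.22 for Add2 1431076_at, -0.23 for Add1 1450054_at and -0.18 for Sptbn1 1452143_at. It was -0.62, 0.51, 0.63 and 0.48 for the Tmod3, Ank2, Ank3 and Sptbn1 1419255_at probe sets. Without untreated replicate 3 alone and with group means taken anew, r was -0.60 for Add2 1431076_at, -0.66 for Add1 1450054_at and -0.59 for Sptbn1 1452143_at. It was then -0.84, 0.59, 0.58 and 0.81 for the Tmod3, Ank2, Ank3 and Sptbn1 1419255_at probe sets. How far the Add2, Add1 and Sptbn1 1452143_at relations rest on those mice was thus not settled. With the cerebellar mean removed, the median r between probe sets was -0.17 for Tmod3 and 0.01 for Sptbn1. With the cerebellar mean as a covariate the log2 differences stayed near those above, at -0.45 for the second brightest Tmod3 probe set, 0.38 for Sptbn1 1419256_at, 0.52 for Tmod2 1437167_at and -0.41 for Ank3 1447259_at. With the oligodendrocyte marker mean as a covariate, whose own difference between the groups did not pass without those 2 arrays, creatine-fed replicate 2 and untreated replicate 3, they were -0.38, 0.31, 0.54 and -0.45.

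By a fixed rule, the genes whose mouse-to-mouse pattern was most like that of a probe set were named, searching 19684 brighter probe sets with 1 symbol, with group means removed over 13 mice. For the second brightest probe set of Tmod3 they were Tbrg4 (r = 0.88), Ankzf1 (r = 0.88) and Larp4 (r = 0.86). For Tmod3 at 1455708_at they were Retreg2 (r = 0.94), Ppp2r1a (r = 0.92) and Cpne8 (r = 0.92). For Sptbn1 at 1452143_at they were Gdi2 (r = 0.87), Spata13 (r = 0.87) and Prdx2 (r = 0.86). These are the highest of many values, on the same arrays, and are given without a test.

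Other genes of the same skeleton were taken from 5 lists chosen by function, each gene at its brightest probe set. Of 49 listed genes 39 were measured under 1 symbol, and none passed over all probe sets, 16 having higher and 23 lower means in creatine-fed mice. At an unadjusted p under 0.05, 5 of the 39 were higher and 4 lower, where 4.17% and 7.7% of all probe sets were.

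Of the 11 relatives of the members listed, 8 were measured, 3 higher and 5 lower, with a median log2 difference of -0.10. Add3, gamma adducin, read 980 ± 63.7 (SD, n = 6) in creatine-fed and 949 ± 76.5 (SD, n = 7) in untreated mice (log2 difference 0.05). Ank1, ankyrin of red cells and of some neurons, differed by 0.05 ± 0.21 (SE), and its lowest value of 281 came from untreated replicate 3. Sptb, the red cell beta spectrin, differed by -0.11 and Sptbn4, the beta spectrin of initial segments and nodes, by -0.09, each with 1 of 6 creatine-fed mice over the mean of untreated mice. The muscle proteins Tmod4, Lmod1, Lmod2 and Lmod3 averaged at most 12.6 units in either group, under the array median on all 13 arrays, with differences of -0.24, -0.17, 0.09 and -0.14.

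Of 12 ankyrin partners of the initial segment and node measured, 5 were higher and 7 lower, with a median of -0.01. At an unadjusted p under 0.05 (limma), 4 were higher and 1 lower, where 4.17% and 7.7% of all probe sets were. The groups did not overlap at 1, which was higher (0.24% of all probe sets). The 1 lower is also among the red blood cell markers, and lay under the array median on all 13 arrays. The brightest 3 were Atp1b1, a subunit of the sodium pump (log2 difference -0.02), the sodium channel Scn2a (0.17, with 6 of 6 creatine-fed mice over the mean of untreated mice) and the sodium channel Scn8a (-0.01). Of 9 genes of the Epb41 family, dematin and actin capping, 3 were higher and 6 lower, and the brightest were the capping proteins Capza2 (0.04) and Capzb (-0.02), and Epb41l3, a linker of spectrin and actin to the membrane, with 1622 ± 61.8 (SD, n = 6) in creatine-fed and 1720 ± 123 (SD, n = 7) in untreated mice (-0.08). Of 6 tropomyosins and actins 4 were higher, and the brightest were Actb (-0.06), Actg1 (-0.07) and Tpm3 (0.10). Of 4 measured spectrin proteases and partners 1 was higher, and the brightest were Capns1, a calpain subunit (-0.03), Capn2, a calpain (-0.13), and Capn1, also a calpain (0.04).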

How the data were processed

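Per the labels' protocols, 3 µg of total RNA per mouse gave biotinylated cRNA for Affymetrix arrays. The intensities deposited by the authors are linear whole numbers per probe set, with a mean of about 150 on every array after trimming 2% at each end. The submitters' processing notes name RMA, whose log2 output the values contradict; which tool scaled them is not given in the sources used here. They were used without further scaling.

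Of 45101 probe sets, 64 controls were set aside. Symbols came from the supplied annotation (34945 probe sets with 1 symbol, 932 with several), updated by Entrez ID through the GRCm38.p6 gene table. No coordinates are printed. An offset of 16 was added, log2 taken, and creatine minus untreated fitted on all 13 arrays with limma 3.58.1 (lmFit, eBayes) in R 4.3.3, with Benjamini-Hochberg adjustment over 45037 probe sets. The fit was tested on simulated data.

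The members, lists and rule for named genes were chosen with earlier results of these data known. Named were all members, all measured relatives, the 3 brightest genes of each other list, and the 3 genes most alike. Alternatives were other offsets (1 and 50), quantile normalization, centring, brighter probe sets, trend and robust eBayes, array weights, a replicate block, a 3'/5' covariate and leaving out mice; covariates for cerebellar and oligodendrocyte markers were added after seeing the data. Replicate numbers were not treated as pairing the mice, apart from the replicate block. Correlations were permuted within groups 100000 times; those outside Tmod3 and Sptbn1, and with markers, were added after seeing the data.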

Additional observations from a re-analysis of the deposited data

Results flagged for a closer look

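Within the 80 groups of 6 or 7 mice at the 40 probe sets, 5 held a mouse set apart from the rest of its group by Dixon's gap test, and chance sets apart about 1 in 20 groups. For Ank2 at 1434265_s_at, creatine-fed replicate 5 read 2103, below the next at 2428. For Tmod2 at 1435060_at, creatine-fed replicate 4 read 848, above the next at 747. For Add1 at 1420953_at, untreated replicate 2 read 858, below the next at 1023, and for Add2 at 1431076_at, untreated replicate 3, the array with few cerebellar transcripts, read 1349, above the next at 1122. For Ank2 at 1440042_at, a probe set under every array median, untreated replicate 1 read 5 where the next read 2.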

How the results depend on the processing

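The count of called members, 0 over all probe sets, was 4 among the 22519 brighter probe sets, 3 with trend and robust eBayes (Sptbn1 1419256_at, Tmod2 1437167_at and the second brightest probe set of Tmod3), 1 with an offset of 50 and 1 with array weights (the same Tmod3 probe set in both); it was 0 in each fit that left out 1 mouse. The second brightest Tmod3 probe set was lower under all 25 alternatives, with log2 differences of -0.47 to -0.41 when each mouse was left out and -0.50 to -0.35 in the others. Since its groups did not overlap, leaving out mice, weighting arrays or changing the offset could not have turned its sign. The number of members with higher means was 26 to 29 when each mouse was left out and 22 to 30 in the others, and the median difference 0.09 to 0.13 and 0.08 to 0.17. Of 992 member values under alternatives, 984 stayed within 1 between-mouse SD of the reported one. That bound is wide, and leaving out 1 mouse could not move a difference so far. At Sptbn1 1419255_at the SD was 0.40 and the difference itself 0.37, so the count does not measure stability. The median r between Tmod3 probe sets, -0.17 as reported, was -0.0552 after quantile normalization and 0.0438 after centring; that of Sptbn1, 0.05 as reported, was 0.347 in creatine-fed mice alone, and the cause was not tested. Leaving out each mouse gave -0.25 to -0.12 and -0.08 to 0.19. Without creatine-fed replicate 2 and untreated replicate 3 the oligodendrocyte marker difference was -0.16 and no longer passed (adjusted p = 0.052, exact permutation). With the replicate number as a block that Tmod3 probe set differed by -0.41 and 0 members passed. Same-numbered mice correlated at -0.06 to 0.15 over probe sets. For replicate 2 it was 0.15, against at most 0.08 with another untreated mouse. At every other number some other untreated mouse correlated more. Such values cannot show whether the numbers carry a pairing or a batch. At the 5 members under the array median on all 13 arrays, low signal limits what the values show.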
